A study of Mus musculus with 36 samples.

Results

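Collagens and other extracellular matrix genes of the mouse heart were examined as a list of 46 genes, matched by symbol to their rows among the 18762 genes of each deposited table. By structure they comprised 5 fibrillar collagens, 5 other collagens, 12 basement membrane genes, 6 matricellular genes, 5 elastic fibre and microfibril genes, 3 cross-linking enzymes, fibronectin, 4 proteoglycans, and 5 proteases and inhibitors. All 46 had a row, and 44 passed the filter on low values (at least 1 FPKM, reads per kilobase of transcript and per 1000000 reads of the library, in at least 3 libraries). The 2 that did not pass were the matricellular genes Spp1 and Tnc.

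RNA was sequenced from hearts of C57BL/6 mice aged 8 weeks, kept on normal chow under 12 h of light a day. The KO-labelled group is listed as Reverb fl/fl /MHC+, with 3 libraries at each of ZT2, ZT6, ZT10, ZT14 and ZT18 (zeitgeber time, hours after lights on). The WT group is listed as Reverb fl/fl, so it carries the floxed alleles too, with 3 libraries at each of those times and at ZT22. The tables recorded for KO at ZT22 hold counts of the KO ZT10 libraries and were left out, so levels were compared over 15 KO-labelled and 15 WT libraries. The labels do not spell out MHC; in heart genetics it commonly names a myosin heavy chain promoter that drives a Cre recombinase in cardiomyocytes. No group carried MHC+ without floxed alleles, so an effect of the transgene and one of the deletion cannot be told apart. The labels do not state whether replicate libraries were made from different mice, and the p-values below therefore reflect sample-to-sample spread that may be technical.

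Depth recovered from the values was 15.04 to 17.4 M reads (M is 1000000) in KO-labelled libraries and 13.7 to 15.65 M in WT libraries, and 0 library pairs were identical. Nr1d1, which encodes a Reverb receptor, was at 192 to 317 FPKM in KO-labelled libraries and 9.29 to 87.7 FPKM in WT libraries. It was therefore higher, not lower, under the KO label. Nr1d2, which encodes the other Reverb receptor, was at 22.35 to 35.4 FPKM in KO-labelled libraries and 10.7 to 42.35 FPKM in WT libraries, which overlapped. The labels do not give the deleted exons, so a level over a whole gene does not check them. The cardiomyocyte marker Myh6 was at 3438 to 4695 FPKM in KO-labelled hearts and 4403 to 6300 FPKM in WT hearts, and was thus abundant in every library. Its mean level was lower in KO-labelled hearts, as given with the other cell markers below.

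The extracellular matrix is the protein network around cells. Fibrillar collagens form its load-bearing fibres, basement membranes are thin sheets of type IV collagen and laminin that wrap cardiomyocytes and vessels, and matricellular proteins are secreted into the matrix to modify how cells behave there rather than to bear load. In the heart, fibroblasts are the main known source of fibrillar collagen, while endothelial cells, pericytes and cardiomyocytes also make basement membrane. Reverb receptors are repressors of the circadian clock that bind DNA at an AGGTCA half-site, alone with an A/T-rich flank or in pairs.

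Promoter windows from RefSeq (GRCm38.p6, the assembly of mm10) were found for 30 of the 46 members. The 4 shown are those of the members with the largest increase (Thbs4) and the largest decrease (Fbln1), of the fibrillar collagen with the largest increase (Col3a1) and of Postn, the member with a match to the AGGTCA half-site. Each runs 5′ to 3′ on the gene's strand over the 250 bases before the annotated start, with the matched motif in capitals. In Thbs4 and Col3a1 the capitals mark CATTCC, the reverse complement of GGAATG, the core bound by TEAD factors. In Fbln1 they mark the E-box CACGTG, bound by CLOCK and BMAL1, and in Postn TGACCT, the reverse complement of AGGTCA.
Thbs4 (chr13:92794819-92795068, minus strand): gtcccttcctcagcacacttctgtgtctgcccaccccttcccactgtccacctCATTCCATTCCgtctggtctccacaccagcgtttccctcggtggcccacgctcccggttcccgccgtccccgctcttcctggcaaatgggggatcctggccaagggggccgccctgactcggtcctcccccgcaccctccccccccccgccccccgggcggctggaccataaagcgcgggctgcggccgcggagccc
Fbln1 (chr15:85205699-85205948, plus strand): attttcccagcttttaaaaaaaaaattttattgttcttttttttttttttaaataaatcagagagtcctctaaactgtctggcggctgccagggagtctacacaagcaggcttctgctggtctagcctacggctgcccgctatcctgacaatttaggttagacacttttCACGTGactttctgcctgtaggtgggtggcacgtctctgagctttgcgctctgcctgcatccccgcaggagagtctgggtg
Postn (chr3:54359017-54359266, plus strand): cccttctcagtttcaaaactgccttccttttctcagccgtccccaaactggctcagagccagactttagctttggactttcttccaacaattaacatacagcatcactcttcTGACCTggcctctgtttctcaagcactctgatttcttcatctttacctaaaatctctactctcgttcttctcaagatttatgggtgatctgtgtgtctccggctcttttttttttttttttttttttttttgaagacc
Col3a1 (chr1:45311288-45311537, plus strand): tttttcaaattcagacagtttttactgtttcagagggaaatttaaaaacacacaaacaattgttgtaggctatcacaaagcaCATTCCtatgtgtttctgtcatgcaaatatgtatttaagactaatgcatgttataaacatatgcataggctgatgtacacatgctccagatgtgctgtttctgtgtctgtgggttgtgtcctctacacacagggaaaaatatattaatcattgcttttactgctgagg

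Motifs were searched on both strands over 300 bases, the 250 shown and the first 50 after the start, and the AGGTCA count includes any match inside the longer clock element. AGGTCA was found in 1 of the 30 members, 138 bases before the start of Postn (position -138), which is 3.33% of members, against 16.5% of 14672 genes with a window. The longer clock element in which an A/T-rich flank precedes the half-site (RORE) was found in 0 members and in 0.184% of genes, and the D-box TTATGTAA in 0 members and 0.906% of genes. CACGTG was found in 1 member, Fbln1, or 3.33%, against 10% of genes. GGAATG was found in 6 members (Col3a1, Col6a2, Col18a1, Nid1, Thbs4 and Timp1), or 20%, against 15.2% of genes, and in Thbs4 a pair of matches, at -197 and -192, shares a base. These matches describe the letters of these windows only.

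Most matrix genes were at a higher level in KO-labelled hearts. Averaged over the 5 times, 35 of the 44 tested members rose (79.5%) and 3 fell (6.82%), 86.4% in all, by limma with Benjamini-Hochberg adjustment over all genes at 0.05. Among all 11790 genes tested, 33.2% rose and 23.4% fell, 56.6% in all, so the members' share of increases was above the background and their share of decreases below it. The median log2 difference, KO-labelled minus WT, was 0.22 over the members and 0.02 over all genes. All differences were taken on log2(FPKM + 1), a scale that shrinks the change of genes with low levels.

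The increases were small for most members and large for a few. The summed level of all 46 was 1460 to 1947 FPKM in KO-labelled libraries and 1306 to 1533 FPKM in WT libraries, ranges that overlapped. Thbs4, Col4a1, Col4a2 and Bgn were higher in all 15 KO-labelled libraries than in any of the 15 WT libraries (9.09% of tested members, background 3.95%). Fbln1 was lower in all 15 KO-labelled libraries (2.27%, background 2.8%), and the other 39 tested members overlapped between the genotypes. A total of 26 members rose and were higher in KO-labelled hearts at each of the 5 times (59.1%, background 25.6%). In whole-heart RNA, a change in the number of cells of a type and a change in RNA per cell cannot be told apart.

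**Figure D1:**
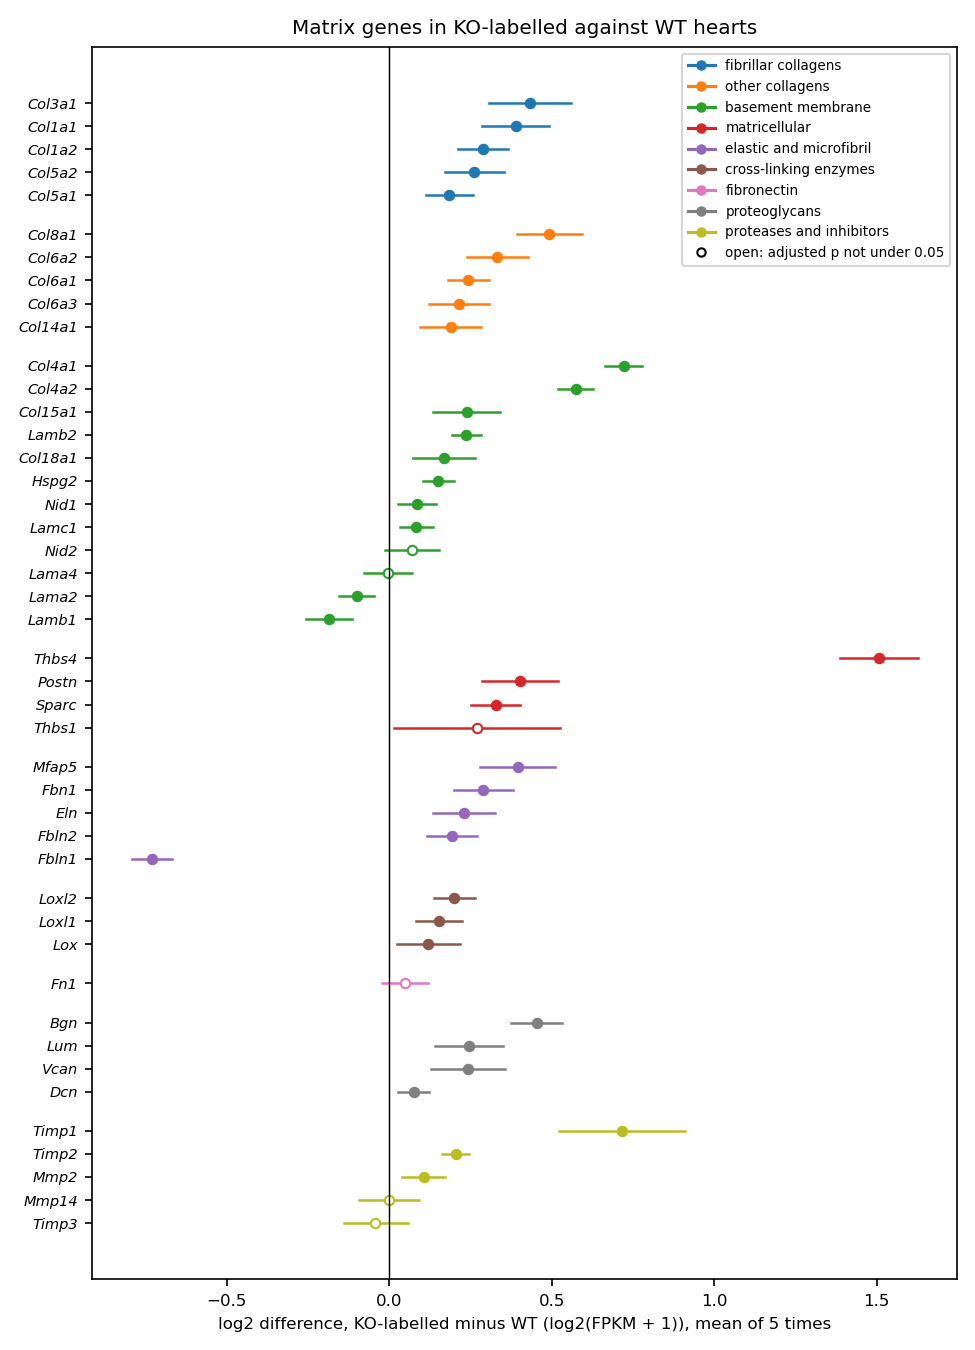
Mean log2 difference of the 44 tested matrix genes, KO-labelled minus WT over the 5 shared times, on the log2(FPKM + 1) scale, grouped by class. Bars are 95% confidence intervals, filled points passed the adjusted p of 0.05 and open points did not. Thbs4 lies farthest to the right at 1.51 and Fbln1 farthest to the left at -0.73.

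All 5 fibrillar collagens rose in KO-labelled hearts (100%, background 33.2%), with a median difference of 0.29. Col3a1, which encodes type III collagen, the compliant collagen of growing and healing tissue, had a lowest, median and highest level of 24.6, 43.3 and 56.6 FPKM in KO-labelled hearts, against 19.75, 29.3 and 39.55 FPKM in WT hearts. The lower part of its KO-labelled range overlapped most of its WT range, and in both genotypes the level also moved with the time of day. Its mean was 40.3 ± 10.2 FPKM in KO-labelled hearts and 29.6 ± 7.37 FPKM in WT hearts (SD, n = 15 each), a log2 difference of 0.43 ± 0.06 (SE; limma adjusted p = 8.13e-07).

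Col1a1, one of the chains of type I collagen, the stiff main collagen of scar, was at 18.35, 24.2 and 29.7 FPKM (lowest, median and highest) in KO-labelled hearts and at 13.7, 18.8 and 21.8 FPKM in WT hearts. The KO-labelled median was above the highest WT library, while the lowest KO-labelled libraries lay within the WT range. The log2 difference was 0.39 ± 0.05 (limma adjusted p = 1.4e-07). Its partner chain Col1a2 averaged 28.6 ± 3.18 FPKM in KO-labelled hearts and 23.2 ± 1.89 FPKM in WT hearts (SD, n = 15 each), a difference of 0.29. The fibril-initiating type V chains Col5a1 and Col5a2 were lower in level, at 6.31 and 5.37 FPKM on average in KO-labelled hearts and 5.43 and 4.295 FPKM in WT hearts, and rose by 0.185 and 0.26. Col3a1 and Col5a2 lie 24.6 kb apart on chromosome 1.

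The 5 other collagens rose as well (100%, background 33.2%), with a median of 0.24. Col8a1, a short-chain collagen of vessel walls, was at 6.03, 6.71 and 11.2 FPKM in KO-labelled hearts and 3.83, 4.75 and 7.60 FPKM in WT hearts. Its KO-labelled libraries were above all WT libraries of the same time at ZT2, ZT6, ZT14 and ZT18, but at ZT10 the lowest of them lay inside the WT values. The difference of 0.49 ± 0.05 was the largest of the class (limma adjusted p = 1.05e-09). For Col6a2, a chain of the beaded-filament collagen VI that sits next to basement membranes, the lowest, median and highest levels were 22.8, 32.1 and 38.9 FPKM in KO-labelled hearts and 17.0, 24.3 and 30.3 FPKM in WT hearts. The ranges overlapped, and the difference was 0.33 ± 0.05 (limma adjusted p = 4.29e-07). Col6a1, 85.2 kb away on chromosome 10, rose by 0.24, Col6a3 by 0.215 and the fibril-associated Col14a1 by 0.19.

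In the basement membrane class 8 of 12 members rose (66.7%, background 33.2%) and 2 fell (16.7%, background 23.4%). The other 2 were not called, and the class median was 0.12. The type IV collagen chains moved most. Col4a1 was at 110.15, 121 and 162 FPKM (lowest, median and highest) in KO-labelled hearts and 57.7, 76.5 and 97.6 FPKM in WT hearts, with a gap between the groups. Its mean was 126 ± 16.8 FPKM in KO-labelled hearts and 76.6 ± 12.3 FPKM in WT hearts (SD, n = 15 each), 1.65-fold higher, and the log2 difference was 0.72 ± 0.03 (limma adjusted p = 8.35e-19). Col4a2, which encodes the partner chain, was at 75.8, 84.8 and 107 FPKM in KO-labelled hearts and 45.2, 59.8 and 69.3 FPKM in WT hearts. These ranges did not overlap either, and the difference was 0.57 ± 0.03 (limma adjusted p = 5.82e-17). The genes start head to head on chromosome 8 and their annotated spans overlap by a short stretch there. The kit named in the labels is not stated to keep the strand, so reads within that stretch cannot be told apart.

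Among the laminins, which form the cell-facing layer of the sheet, the chains went in different directions. Lamb2, the beta chain of mature heart and muscle basement membrane, averaged 88.2 ± 5.94 FPKM in KO-labelled hearts and 74.7 ± 4.965 FPKM in WT hearts (SD, n = 15 each), a difference of 0.24 ± 0.02 (limma adjusted p = 3.54e-10). Lamb1, the alternative beta chain, averaged 18.5 ± 2.37 FPKM in KO-labelled hearts and 21.2 ± 2.875 FPKM in WT hearts, a difference of -0.185 ± 0.03 (limma adjusted p = 3.99e-05). Both pairs of ranges overlapped between the groups. Lama2, the muscle alpha chain, averaged 13.4 FPKM in KO-labelled hearts and 14.4 FPKM in WT hearts, a difference of -0.10 ± 0.03 (limma adjusted p = 0.00202). Lama4, the alpha chain of vessels, differed by -0.003 (95% confidence interval -0.08 to 0.07), and the shared gamma chain Lamc1 rose by 0.08, a call that was lost with quantile normalization (limma adjusted p = 0.0592).

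The remaining members of the sheet showed smaller increases. Col15a1 and Col18a1, the collagens that release endostatin-type fragments, rose by 0.24 and 0.17. The heparan sulfate proteoglycan perlecan (Hspg2) rose by 0.15, and nidogen 1 (Nid1), which links laminin to type IV collagen, by 0.085. The call for Nid1 was lost with median-ratio scaling, with quantile normalization and by edgeR (adjusted p up to 0.0912). For Nid2 the difference was 0.07 (95% confidence interval -0.01 to 0.15; limma adjusted p = 0.151). Its annotated span overlaps Rtraf, which averaged 81.0 FPKM, so reads in shared bases cannot be told apart.

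In the matricellular class, 3 of the 4 tested members rose (75%, background 33.2%), with a median of 0.37. Thbs4, a pentameric thrombospondin of tendon, muscle and stressed heart, was at 4.60, 6.24 and 7.60 FPKM (lowest, median and highest) in KO-labelled hearts and 0.91, 1.46 and 2.0 FPKM in WT hearts. Its lowest KO-labelled library was above its highest WT library. The mean was 4.09-fold higher, at 6.075 ± 0.90 FPKM in KO-labelled hearts and 1.49 ± 0.28 FPKM in WT hearts (SD, n = 15 each), and the log2 difference was 1.51 ± 0.06 (limma adjusted p = 1.19e-18). The lowest library held 42 reads for this gene by recovered depth and the highest 381, so counting error is not negligible at the low end.

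**Figure D2:**
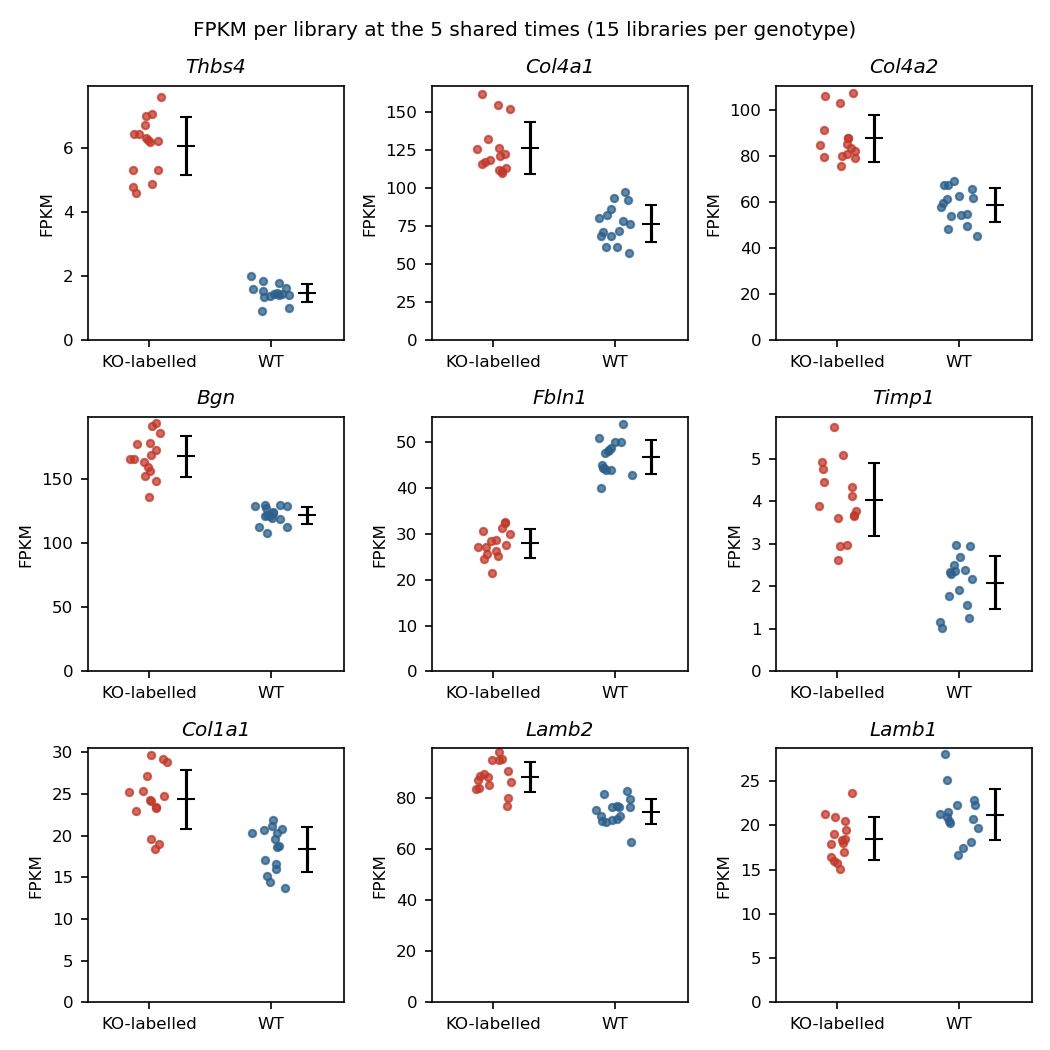
FPKM of 9 matrix genes in each of 15 KO-labelled (left) and 15 WT (right) libraries at the 5 shared times, with the mean and SD beside the points. Thbs4, Col4a1, Col4a2 and Bgn are higher in every KO-labelled library and Fbln1 is lower in every one, while Timp1, Col1a1, Lamb2 and Lamb1 overlap between the genotypes.

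Postn, which encodes periostin, a matrix protein of activated fibroblasts, was at 12.0, 17.8 and 21.4 FPKM in KO-labelled hearts and 10.6, 12.5 and 16 FPKM in WT hearts. The ranges overlapped, with the KO-labelled median above the highest WT library. It rose by 0.40 ± 0.06 (limma adjusted p = 6.21e-07). Sparc, a collagen-binding glycoprotein and the most abundant matricellular member, averaged 196.5 ± 25.5 FPKM in KO-labelled hearts and 156 ± 13.4 FPKM in WT hearts (SD, n = 15 each), a difference of 0.33 that was called at all 5 times. Thbs1, an activator of latent TGF-beta, differed by 0.27 (95% confidence interval 0.015 to 0.53) without passing the adjusted threshold (limma adjusted p = 0.0661), and its adjusted p ranged from 0.00223 to 0.141 over the alternative settings. Without KO ZT2 replicate 1, KO ZT10 replicate 1 or WT ZT2 replicate 1 it was called as higher.

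Spp1 (osteopontin) and Tnc (tenascin C), both known for induction in injured heart, were near the bottom of the measured range. Spp1 was at 0.14, 0.29 and 0.46 FPKM (lowest, median and highest) in KO-labelled hearts and 0.05, 0.27 and 0.48 FPKM in WT hearts. Tnc was at 0.10, 0.27 and 0.62 FPKM in KO-labelled hearts and 0.05, 0.15 and 0.32 FPKM in WT hearts. Both genes overlapped between the groups. When all genes entered the fit, Tnc was higher by 0.17 (limma adjusted p = 0.000175) and Spp1 by 0.07 (limma adjusted p = 0.223).

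Set side by side, the fibrillar and matricellular classes had median differences of 0.29 and 0.37, against 0.12 in the basement membrane class. The matricellular median rests on the 4 of 6 members that passed the filter. With no filter it was 0.30 over all 6, close to the 0.29 of the fibrillar class. The 2 added members, Spp1 and Tnc, stayed below 1 FPKM, where the log2(FPKM + 1) scale shrinks differences most. With a pseudocount of 0.1 the medians were 0.398 for the 4 matricellular members, 0.31 for the fibrillar class and 0.12 for the basement membrane class. The range within the basement membrane class, from -0.185 for Lamb1 to 0.72 for Col4a1, was wider than the 0.185 to 0.43 of the fibrillar class. No test was made of a difference between classes, and their members are few.

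Of the 5 elastic fibre and microfibril genes, 4 rose (80%, background 33.2%) and 1 fell (20%, background 23.4%). Fbln1, a fibulin of elastic fibres and basement membranes, was at 21.5, 27.55 and 32.5 FPKM (lowest, median and highest) in KO-labelled hearts and 40.0, 47.8 and 53.9 FPKM in WT hearts. The groups did not overlap at any time. The mean was 27.9 ± 3.095 FPKM in KO-labelled hearts and 46.8 ± 3.69 FPKM in WT hearts (SD, n = 15 each), a log2 difference of -0.73 ± 0.03 (limma adjusted p = 6.37e-18). Its relative Fbln2 went the other way, with 29.85 ± 3.13 FPKM in KO-labelled hearts and 26.0 ± 2.59 FPKM in WT hearts and a difference of 0.19. Mfap5, a microfibril glycoprotein, was at 17.7, 21.15 and 31.75 FPKM in KO-labelled hearts and 12.5, 15.6 and 22.6 FPKM in WT hearts. These ranges overlapped, and the difference was 0.395 ± 0.06 (limma adjusted p = 6.36e-07). Fibrillin 1 (Fbn1), the backbone of microfibrils, rose by 0.29 and elastin (Eln) by 0.23.

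The enzymes that cross-link collagen and elastin rose by less. Loxl2 was at 4.42, 5.47 and 8.47 FPKM in KO-labelled hearts and 3.54, 5.33 and 6.78 FPKM in WT hearts. The medians were close and the ranges overlapped over most of their width, and the mean difference was 0.20 ± 0.03 (limma adjusted p = 2.1e-06). Loxl1, the relative that acts on elastin, rose by 0.15 and lysyl oxidase itself (Lox), at about 1 FPKM, by 0.12. The call for Lox (limma adjusted p = 0.0297) was lost without any of 8 single libraries, namely KO ZT10 replicate 1 or 3, KO ZT14 replicate 2, KO ZT18 replicate 2, WT ZT2 replicate 2 or 3, WT ZT10 replicate 3 and WT ZT14 replicate 1, and with median-ratio scaling or quantile normalization. Its limma adjusted p reached up to 0.0891.

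Fibronectin (Fn1), the glycoprotein on which collagen fibrils assemble, was at 4.45, 6.26 and 6.92 FPKM in KO-labelled hearts and 5.13, 5.90 and 7.15 FPKM in WT hearts. The ranges overlapped almost fully, and the difference was 0.05 with a 95% confidence interval of -0.02 to 0.12 (limma adjusted p = 0.245).

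All 4 proteoglycans rose (100%, background 33.2%). Biglycan (Bgn), a small leucine-rich proteoglycan that binds collagen fibrils, was at 136, 165 and 194 FPKM in KO-labelled hearts and 107, 122 and 129 FPKM in WT hearts. No KO-labelled library lay inside the WT range of the 5 shared times, although the WT libraries at ZT22, with 151, 141 and 139 FPKM, reached into the KO-labelled range. The log2 difference was 0.45 ± 0.04 (limma adjusted p = 4.5e-11). Lumican (Lum), of the same family, averaged 47.1 ± 6.43 FPKM in KO-labelled hearts and 39.5 ± 4.01 FPKM in WT hearts (SD, n = 15 each) and rose by 0.245. Decorin (Dcn), the most abundant member, averaged 339 ± 24.7 FPKM in KO-labelled hearts and 321 ± 22.9 FPKM in WT hearts and rose by 0.08 (limma adjusted p = 0.00673). Quantile normalization, median-ratio scaling and edgeR each ended its call, with adjusted p up to 0.551. The large hyaluronan-binding versican (Vcan) rose by 0.24.

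Among the proteases and inhibitors, 3 of 5 members rose (60%, background 33.2%), namely the inhibitors Timp1 and Timp2 and the protease Mmp2. Timp1, the inducible inhibitor of metalloproteinases, was at 2.62, 3.89 and 5.74 FPKM in KO-labelled hearts and 1.02, 2.28 and 2.97 FPKM in WT hearts. The upper end of the WT range lay just inside the KO-labelled range. The mean was 1.93-fold higher and the log2 difference 0.72 ± 0.09 (limma adjusted p = 2.07e-07), with 12 to 73 reads per library for this short transcript. Timp2, the constitutive inhibitor that also takes part in activating Mmp2, averaged 46.1 ± 1.76 FPKM in KO-labelled hearts and 39.9 ± 1.98 FPKM in WT hearts and rose by 0.205. The gelatinase Mmp2 rose by 0.11 (limma adjusted p = 0.00667), but not once trends of transcript length and GC content were removed (limma adjusted p = 0.115). The membrane-bound collagenase Mmp14 differed by -0.001 (95% confidence interval -0.09 to 0.09) and the matrix-bound inhibitor Timp3 by -0.04 (-0.14 to 0.06).

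Ratios were taken within each library between partner chains of type I, IV, V and VI collagen. They were also taken between related genes, namely the fibulins, the laminin beta and alpha chains, the nidogens, Lum and Dcn, and Col3a1 and Col1a1. The ratio of Fbln1 to Fbln2 had a median of 0.971 in KO-labelled libraries (range 0.712 to 1.11) and 1.84 in WT libraries (1.40 to 2.10), with no overlap. Fbln1 alone did not overlap either, as given above, and no share over all pairs of genes was taken. The ratio of Lamb1 to Lamb2 had a median of 0.205 in KO-labelled libraries (0.158 to 0.283) and 0.288 in WT libraries (0.218 to 0.368), and that of Col4a1 to Col4a2 1.44 (1.34 to 1.56) in KO-labelled libraries and 1.28 (1.23 to 1.41) in WT libraries. These overlapped in part. The chains of type I collagen kept closer together, with a Col1a1 to Col1a2 ratio of 0.856 (0.733 to 0.97) in KO-labelled libraries and 0.816 (0.651 to 0.896) in WT libraries. For Nid1 to Nid2 the median was 5.42 in KO-labelled libraries and 5.24 in WT libraries. That of Col6a1 to Col6a2 was 0.823 in KO-labelled and 0.893 in WT libraries, and that of Lum to Dcn 0.139 and 0.125. These ranges overlapped between the genotypes. So did those of Col3a1 to Col1a1, Col5a1 to Col5a2, Col6a3 to Col6a1 and Lama4 to Lama2. In order of level per length, Dcn, Sparc, Bgn, Col4a1 and Lamb2 were the 5 most abundant members in both genotypes, whereas Fbln1 ranked 17 in KO-labelled hearts and 8 in WT hearts.

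The number of members that differed moved with the time of day. At ZT2, 16 members rose (36.4%, background 18.6%) and 2 fell (4.55%, background 11.3%), so that 40.9% were called, against 29.9% of all genes. At ZT6, 32 rose (72.7%, background 19.1%) and 2 fell (4.55%, background 12.7%), with 77.3% called, against 31.8%. At ZT10, 10 rose (22.7%, background 14.3%) and 3 fell (6.82%, background 13.5%), with 29.5% called, against 27.8%. ZT6 thus had the most calls, and at ZT10 the members' share of calls was near the background. At ZT14, 25 rose (56.8%, background 19.2%) and 1 fell (2.27%, background 11.8%), with 59.1% called, against 30.9%. At ZT18, 17 rose (38.6%, background 17.7%) and 2 fell (4.55%, background 14.4%), with 43.2% called, against 32.1%. The median difference over the members was 0.17, 0.35, 0.08, 0.25 and 0.16 at ZT2, ZT6, ZT10, ZT14 and ZT18, while that over all genes stayed between -0.008 and 0.04. The count at ZT2 was 10 without KO ZT2 replicate 3, and that at ZT14 was 18 to 28 with a single library left out. Over the same 5 times the median difference was 0.58, 0.47, 0.14, 0.39 and 0.09 for markers of activated fibroblasts, 0.04, 0.13, -0.15, 0.08 and 0.009 for fibroblast markers and 0.02, 0.09, -0.10, 0.125 and -0.155 for endothelial markers. Red blood cell markers differed by a median of 0.65, -0.74, -0.14, -0.055 and -0.50, with 5 of 5 higher at ZT2, 5 of 5 lower at ZT6 and 3 of 5 lower at ZT18 (limma, background as above). The part of these cell markers in the course of the matrix genes was not tested.

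**Figure D3:**
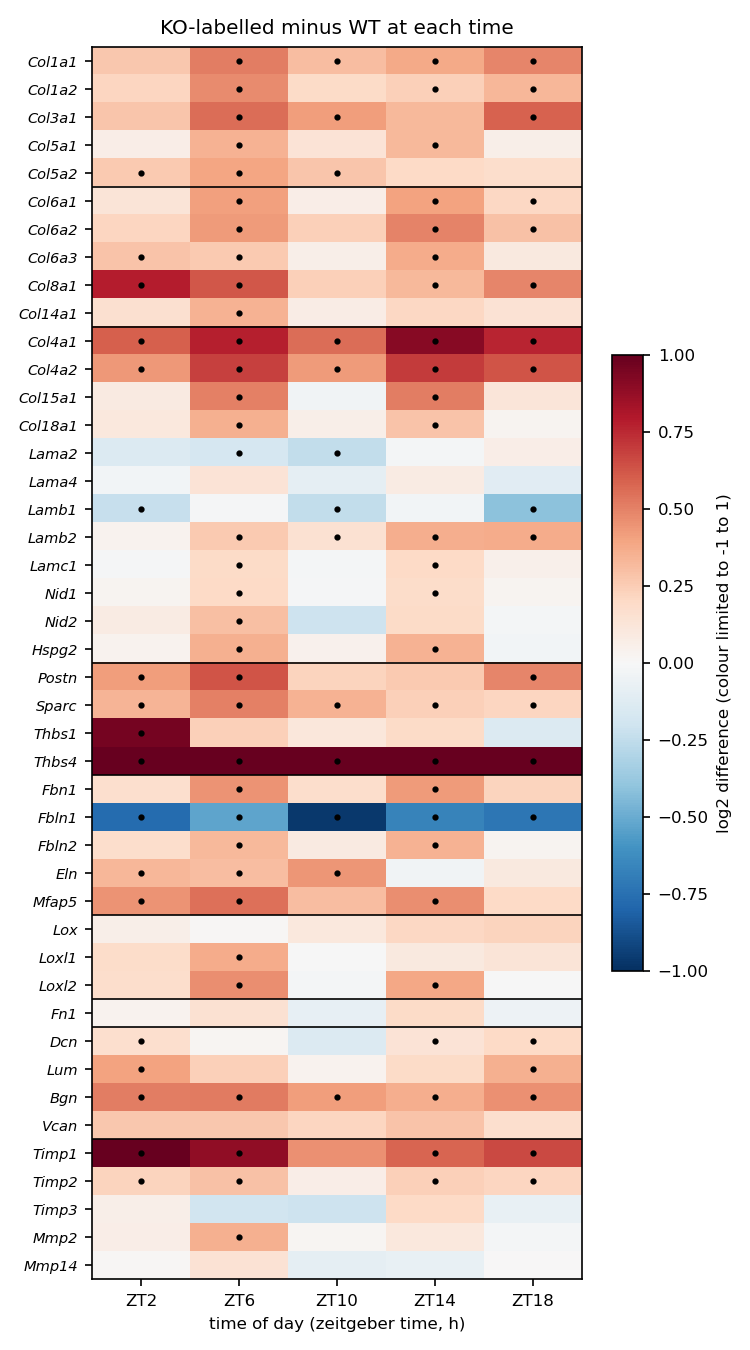
Log2 difference, KO-labelled minus WT on the log2(FPKM + 1) scale, of each tested member (rows, with lines between classes) at the 5 shared times (columns). Red is higher and blue lower in KO-labelled hearts, colours are limited to the range from -1 to 1, and a dot marks an adjusted p under 0.05. Thbs4, Col4a1, Col4a2, Sparc, Bgn and Fbln1 carry a dot in every column.

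Class medians moved over the times to different degrees. The test of whether the difference varied over the 5 times, given below, called 0 fibrillar, 0 other collagen and 0 matricellular members. Their lowest limma adjusted p were 0.174, 0.0561 and 0.318 by class. The same test called 3 of 12 basement membrane genes, against 5.37% of all genes. The shares of all genes called at each time are those given above. At ZT6 all 5 fibrillar collagens, all 5 other collagens and 9 of 12 basement membrane genes rose, with class medians of 0.47, 0.41 and 0.28. There 1 basement membrane gene, Lama2, fell. At ZT10 the medians were 0.275, 0.07 and -0.015, with 3 fibrillar and 3 basement membrane members higher. The basement membrane calls were split, as 2 members, Lama2 (-0.25) and Lamb1 (-0.24), were lower. The matricellular medians were 0.685, 0.56, 0.285, 0.25 and 0.35 over the 5 times, with all 4 tested members higher at ZT2, among them Thbs1 at 3.67, 9.19 and 14.8 FPKM in KO-labelled hearts against 7.57, 2.37 and 2.58 FPKM in WT hearts. These Thbs1 values spread widely within both groups and overlapped.

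For the fibrillar collagens, libraries of the same group differed most at ZT10. The mean log2(FPKM + 1) of the 5 fibrillar collagens there was 4.19, 4.11 and 3.735 in KO-labelled replicates 1, 2 and 3, and 3.51, 3.79 and 3.94 in WT replicates 1, 2 and 3. KO-labelled replicate 3 thus lay below the other 2 of its group and inside the WT values, and WT replicate 1 below its group. At ZT10, 17 members were called without KO ZT10 replicate 3 and 10 without WT ZT10 replicate 1, against 13 with all libraries. At ZT6 the same measure was 4.31, 4.39 and 4.36 in KO-labelled libraries and 3.92, 3.88 and 3.89 in WT libraries, with no overlap.

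Whether the difference itself varied over the 5 times was tested as an interaction of genotype and time. It was called for 6 of 44 members (13.6%, background 5.37%): Hspg2, Loxl2, Lamb2, Dcn, Fbln1 and Col4a1. The count was 10 without KO ZT2 replicate 1 or without WT ZT2 replicate 1, and 3 without KO ZT10 replicate 3. With sample weights it was 17, and with length and GC trends removed it was 3. Hspg2, Loxl2 and Lamb2 were called in every alternative and with any single library left out.

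Perlecan (Hspg2) had the smallest p (limma adjusted p = 0.00116). Its levels were 40.6, 38.7 and 41.4 FPKM in KO-labelled hearts at ZT6, against 32.9, 30.7 and 29.9 FPKM in WT hearts, and 41.8, 37.8 and 39.3 FPKM at ZT14 in KO-labelled hearts, against 29.4, 33.1 and 30.6 FPKM in WT hearts. At both times the groups were apart. At ZT18 it was at 33.8, 34.1 and 33.3 FPKM in KO-labelled hearts and 34.5, 34.5 and 34.0 FPKM in WT hearts, which overlapped, and the differences over the 5 times were 0.04, 0.36, 0.04, 0.34 and -0.025.

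Loxl2 followed the same alternation, with differences of 0.17, 0.47, -0.02, 0.39 and -0.007 (limma adjusted p of the interaction = 0.00309). It was at 8.47, 8.10 and 8.34 FPKM in KO-labelled hearts at ZT6 and at 6.05, 5.85 and 5.33 FPKM in WT hearts. At ZT10 it was at 5.47, 5.72 and 4.42 FPKM in KO-labelled hearts and 4.95, 5.36 and 5.47 FPKM in WT hearts. The first of these times had a gap between the groups and the second had none.

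For Lamb2 the difference was smallest at ZT2 and largest in the dark phase, at 0.04, 0.26, 0.15, 0.37 and 0.37 (limma adjusted p of the interaction = 0.0102). It was at 83.5, 76.95 and 80.1 FPKM in KO-labelled hearts at ZT2, against 75.4, 82.8 and 76.35 FPKM in WT hearts, and at 95.04, 97.9 and 95.3 FPKM in KO-labelled hearts at ZT18, against 76.6, 73.0 and 72.9 FPKM in WT hearts. The groups overlapped at ZT2 and were apart at ZT18.

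The other 3 interactions were less stable. Dcn had differences of 0.17, 0.02, -0.14, 0.135 and 0.20 (limma adjusted p = 0.0222) and lost its call without KO ZT10 replicate 3, without WT ZT10 replicate 3 and with length and GC trends removed, at limma adjusted p up to 0.0579. Fbln1 was lower at all 5 times, with differences of -0.77, -0.52, -0.965, -0.67 and -0.72 (limma adjusted p = 0.0431), and Col4a1 was higher at all 5, by 0.60, 0.78, 0.56, 0.91 and 0.765 (limma adjusted p = 0.0487). Their interaction calls were lost with 19 and 27 of the single libraries left out, at adjusted p up to 0.0996 and 0.095. They were also lost in 6 other settings for Fbln1 (adjusted p up to 0.0811) and in 8 for Col4a1 (adjusted p up to 0.231), among them edgeR, median-ratio scaling and removal of length and GC trends for both.

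**Figure D4:**
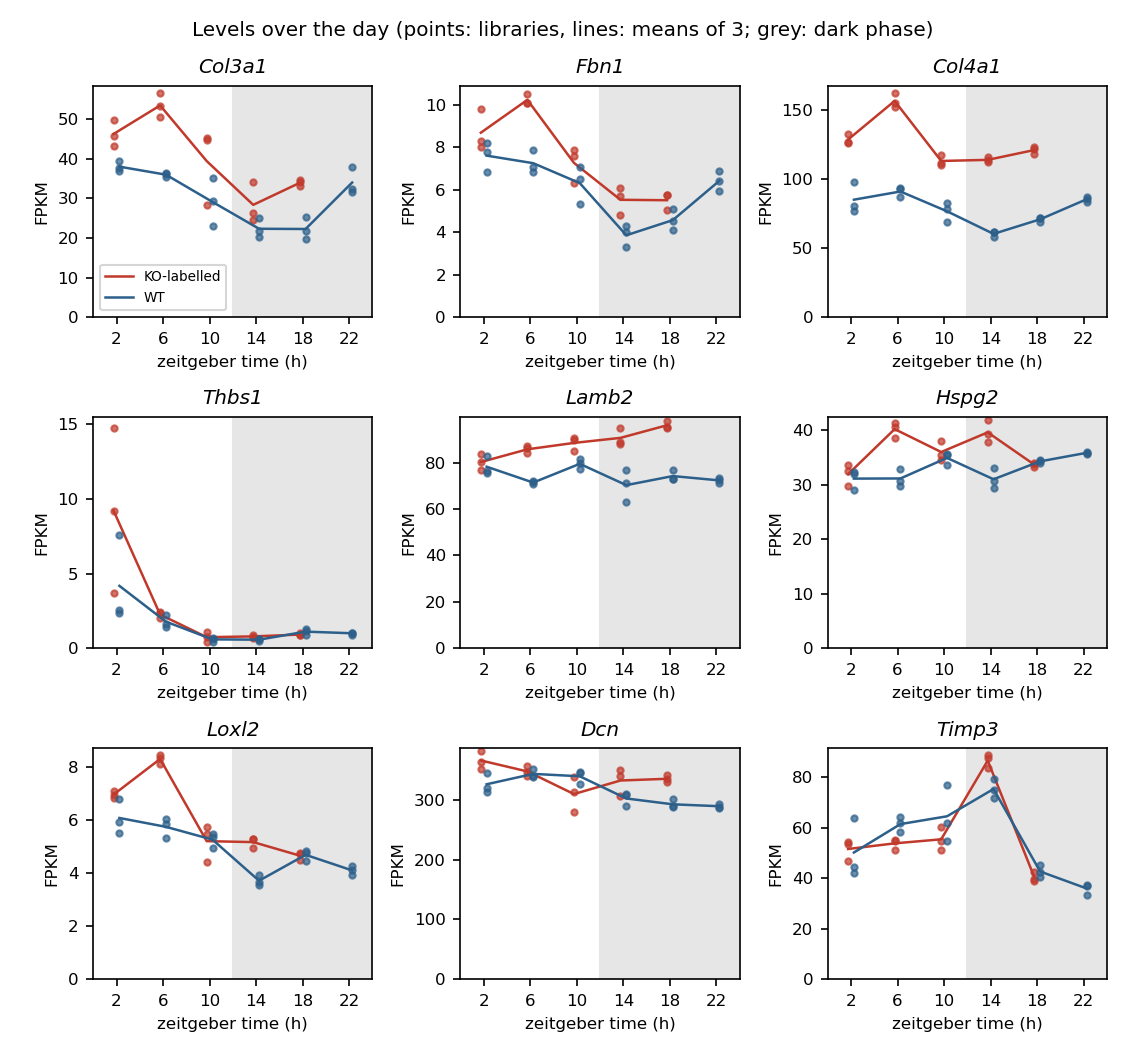
FPKM over zeitgeber time of 9 matrix genes, with KO-labelled libraries in red (ZT2 to ZT18) and WT libraries in blue (ZT2 to ZT22), lines through the means of 3 libraries and the dark phase in grey. Col3a1 and Fbn1 are highest at ZT2 and ZT6 in both genotypes, Thbs1 is highest at ZT2, and Timp3 is highest at ZT14.

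Many matrix genes varied over the day in both genotypes. A 24 h cosine was called for 24 of 44 members in KO-labelled hearts (54.5%, background 26.9%) and 24 in WT hearts (54.5%, background 38.6%), by limma at an adjusted p of 0.05. Of these, 19 were called in both, 5 in KO-labelled hearts alone (Hspg2, Lamb2, Sparc, Fbln1 and Mmp2) and 5 in WT hearts alone (Col1a1, Col4a2, Lama2, Lox and Timp3), and 15 in neither. None of these 10 passed the test of a difference in rhythm. The fit for KO-labelled hearts rests on 5 times and that for WT hearts on 6. KO-labelled hearts were not measured between ZT18 and ZT2, so a fitted peak there is extrapolated.

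The fitted peaks clustered in the first hours of the light phase. Between ZT0 and ZT6 lay the peaks of 21 of the 24 members rhythmic in KO-labelled hearts (87.5%, against 22.4% of all genes rhythmic there) and of 20 of the 24 rhythmic in WT hearts (83.3%, against 16.2%). The exceptions were Sparc, Hspg2 and Lamb2 in KO-labelled hearts, and Lama2, Dcn, Col8a1 and Timp3 in WT hearts. For the 19 rhythmic in both, the peak in KO-labelled hearts was later by a median of 0.5 h, and the median amplitude (the fitted rise of the peak over the mean, log2) was 0.30 in KO-labelled hearts and 0.255 in WT hearts. Amplitude was larger in KO-labelled hearts for 12 of the 19. The peak shifts ran from -7.0 h for Dcn to 1.7 h for Col5a1, and of the 19 only Dcn passed the test of a difference in rhythm. Peaks between ZT0 and ZT6 also occurred in related lists, described below. They were fitted for 3 of 3 rhythmic fibroblast markers in KO-labelled hearts and 3 of 6 in WT hearts. In the same order, counts were 4 of 5 and 3 of 6 for further matrix proteases. They were 4 of 9 and 2 of 6 for matrix receptors, and 2 of 8 and 5 of 10 for collagen synthesis and export.

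Rhythmic members came from each of the 3 classes set side by side. Among fibrillar collagens 3 of 5 were called in KO-labelled hearts and 4 in WT hearts. Of the basement membrane genes 6 of 12 were called in each genotype, and of the 4 tested matricellular genes 2 were called in KO-labelled hearts and 1 in WT hearts. Among all genes, 26.9% were called in KO-labelled hearts and 38.6% in WT hearts, so the matricellular share in WT hearts was below the background. Thbs1 had the largest amplitude, at 1.23 with a peak at ZT1.1 in KO-labelled hearts (limma adjusted p = 1.82e-05) and 0.65 with a peak at ZT2.1 in WT hearts (limma adjusted p = 0.00329). The difference between these rhythms was not called (limma adjusted p = 0.353), and at ZT10 the gene was down to 0.40, 0.73 and 1.06 FPKM in KO-labelled hearts and 0.44, 0.68 and 0.63 FPKM in WT hearts.

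Fibrillin 1 (Fbn1) had the smallest rhythm p of the members in both genotypes (limma adjusted p = 2.89e-06 in KO-labelled hearts and 3.15e-07 in WT hearts). It was at 10.1, 10.1 and 10.5 FPKM in KO-labelled hearts at ZT6 and 6.07, 4.79 and 5.71 FPKM at ZT14, and in WT hearts it was at 7.85, 7.05 and 6.84 FPKM at ZT6 and 3.28, 4.01 and 4.27 FPKM at ZT14. In each genotype every ZT6 library was above every ZT14 library. Col3a1 had an amplitude of 0.39 in KO-labelled hearts and 0.42 in WT hearts, with peaks at ZT3.7 and ZT3.2, and Col6a3 an amplitude of 0.37 in KO-labelled hearts and 0.35 in WT hearts, with a peak at ZT2.9 in both. Mmp14, whose mean level hardly differed between the genotypes, cycled in both, with an amplitude of 0.36 in KO-labelled hearts and 0.31 in WT hearts (limma adjusted p = 1.3e-05 and 3.16e-05). Timp3, by contrast, was highest at ZT14, at 83.5, 88.8 and 87.4 FPKM in KO-labelled hearts and 79.1, 74.98 and 71.8 FPKM in WT hearts.

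**Figure D5:**
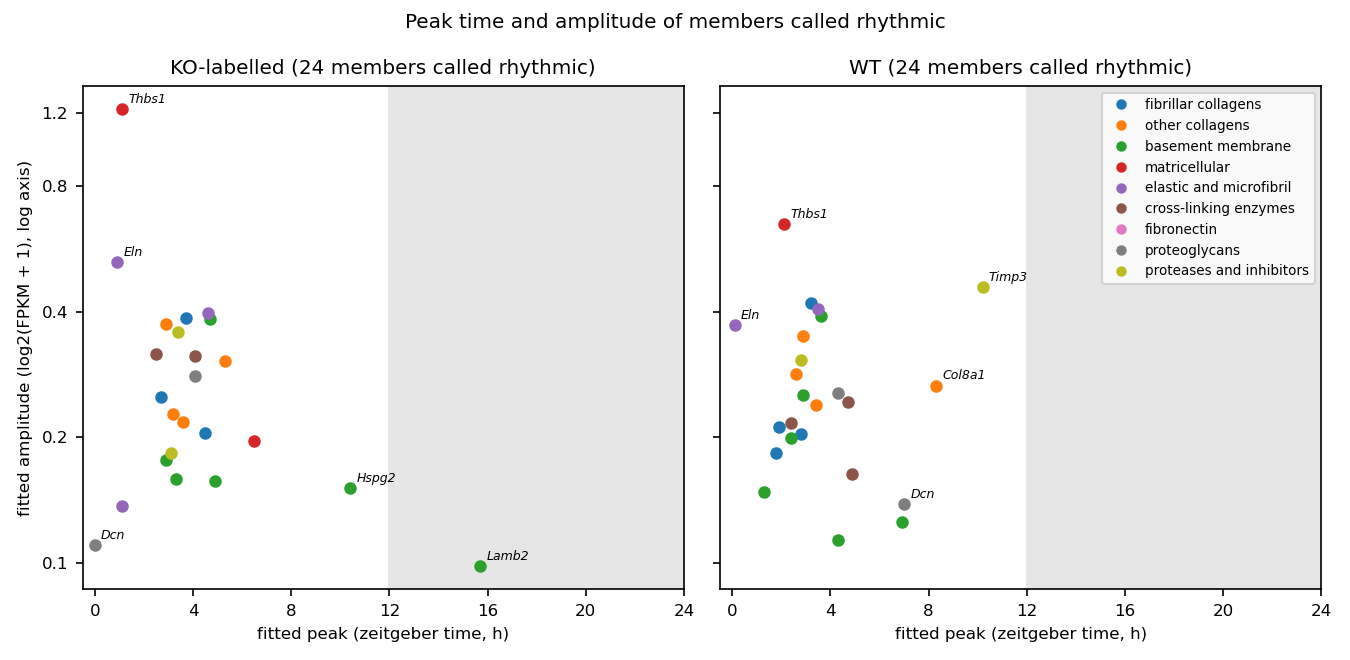
Fitted peak time (zeitgeber time, h) against fitted amplitude (log2(FPKM + 1), log axis) of the 24 members called rhythmic in KO-labelled hearts (left) and the 24 in WT hearts (right), coloured by class, with the dark phase in grey. Most points lie between ZT0 and ZT6 in both panels, and Thbs1 has the largest amplitude in both.

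A difference in rhythm between the genotypes was called for 1 member, Dcn (2.27%, background 1.09%; limma adjusted p = 0.0106). The fitted peak of decorin was at ZT0.0 with an amplitude of 0.11 in KO-labelled hearts and at ZT7.0 with an amplitude of 0.14 in WT hearts. The KO-labelled peak lies between ZT18 and ZT2, where KO-labelled hearts were not measured. Decorin was highest at ZT2 in KO-labelled hearts, at 353, 364.5 and 382 FPKM, against 321, 345 and 313 FPKM in WT hearts. Its lowest KO-labelled levels were at ZT10, at 338, 313 and 279 FPKM, against 347, 328 and 345 FPKM in WT hearts. The groups were apart at ZT2 and overlapped at ZT10, where KO-labelled replicate 3 was again the lowest. With WT at ZT2 to ZT18 only, or with trends of transcript length and GC content removed, the call was lost (limma adjusted p up to 0.0892).

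Genes that process, bind and cut the matrix proteins were counted from further lists. Of 23 tested genes of collagen synthesis and export (25 listed), 8 rose (34.8%, background 33.2%) and 6 fell (26.1%, background 23.4%), shares near those of all genes, with a median of 0.03. Pcolce, which enhances the cleavage of procollagen ends, averaged 51.95 ± 4.42 FPKM in KO-labelled hearts and 30.1 ± 2.41 FPKM in WT hearts (SD, n = 15 each), a difference of 0.77 ± 0.035 (limma adjusted p = 4.86e-17), without overlap. Its relative Pcolce2 averaged 9.21 ± 0.88 FPKM in KO-labelled hearts and 12.25 ± 1.43 FPKM in WT hearts, a difference of -0.37. Fkbp10, a chaperone of procollagen folding, averaged 4.52 ± 0.50 FPKM in KO-labelled hearts and 8.03 ± 1.335 FPKM in WT hearts, a difference of -0.70 ± 0.04 (limma adjusted p = 3.65e-14), while P4hb, the shared subunit of prolyl hydroxylase, rose by 0.38 and the main collagen chaperone Serpinh1 differed by -0.08 (limma adjusted p = 0.131).

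Of 18 tested matrix receptors (23 listed), 9 rose (50%, background 33.2%) and 0 fell by limma (background 23.4%), with a median of 0.10 (also 0 lower at an unadjusted p under 0.05, and 0 by edgeR). They included the collagen receptor Ddr1 (0.41), the cardiomyocyte laminin receptor subunit Itga7 (0.38), the heparan sulfate proteoglycan Sdc2 (0.315) and the collagen-binding integrin subunit Itga1 (0.31). Itga7 averaged 60.85 ± 5.04 FPKM in KO-labelled hearts and 46.3 ± 2.37 FPKM in WT hearts (SD, n = 15 each), without overlap (limma adjusted p = 1.07e-13). Of 14 further matrix proteases tested (22 listed), 4 rose (28.6%, background 33.2%) and 2 fell (14.3%, background 23.4%). The collagen-degrading cathepsin Ctsk rose by 0.38, and Adamts1, which cuts versican, had a difference of -0.38.

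Marker genes of the cells that could supply these transcripts moved beside them to different degrees. Of 10 fibroblast markers, 3 rose (30%, background 33.2%) and 2 fell (20%, background 23.4%), with a median of 0.03, and their summed level was 505 to 679.8 FPKM in KO-labelled libraries and 514 to 682 FPKM in WT libraries. Gsn alone made up 75.1 to 79.05% of that sum in KO-labelled libraries and 76.2 to 81.0% in WT libraries. The other 9 markers summed to 118 to 157 FPKM in KO-labelled libraries and 107 to 137 FPKM in WT libraries, which overlapped. Of 7 markers of activated fibroblasts, 5 were tested and 4 rose (80%, background 33.2%). The tested marker that was not called was Fap, with a difference of 0.004 (limma adjusted p = 0.952). Summed levels of the 7 were 165 to 386 FPKM in KO-labelled libraries and 53.3 to 171 FPKM in WT libraries, which overlapped. Acta2, smooth muscle actin, averaged 245 ± 63.6 FPKM in KO-labelled hearts and 95.85 ± 40.6 FPKM in WT hearts (SD, n = 15 each), a difference of 1.43 ± 0.09 (limma adjusted p = 1.38e-13), and Cilp rose by 0.69. Without Acta2 the other 6 summed to 9.66 to 20.4 FPKM in KO-labelled libraries and 6.46 to 13.4 FPKM in WT libraries. Acta2 is also a gene of smooth muscle and of stressed cardiomyocytes. The part of these markers in the matrix differences was not tested.

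Among markers of other cells, averaged over the 5 times, the share that rose was 0 to 37.5% by list and the share that fell 0 to 50%, against 33.2% and 23.4% of all genes. Endothelial markers rose for 2 and fell for 2 of 10, with summed levels of 294 to 384 FPKM in KO-labelled libraries and 281.5 to 364 FPKM in WT libraries. Smooth muscle and pericyte markers rose for 1 and fell for 1 of 10, at 266 to 344 FPKM in KO-labelled libraries and 295.5 to 352 FPKM in WT libraries. Macrophage markers rose for 2 of 9, at 141 to 198 FPKM in KO-labelled libraries and 128 to 193 FPKM in WT libraries. Cardiomyocyte markers rose for 3 (37.5%) and fell for 4 (50%) of 8, the latter share above the background. Their summed levels were 46700 to 52480 FPKM in KO-labelled libraries and 45950 to 52790 FPKM in WT libraries. Lower were Tnni3 (-0.43), Myh6 (-0.42), Ryr2 (-0.14) and Ttn (-0.08), and higher were Tnnt2 (0.19), Actc1 (0.10) and Myl2 (0.085). Of 6 mesothelial markers 1 fell, and 0 of 5 red blood cell markers were called by limma (0 at an unadjusted p under 0.05, and 2 lower by edgeR). The red blood cell mean combines opposite differences at ZT2 and ZT6, given above, and all 5 of these markers were called for the interaction, with summed levels of 2695 to 6121 FPKM in KO-labelled libraries and 2982 to 6282 FPKM in WT libraries. No listed marker was at 0 in all libraries (0 genes), and the part of any of these levels in the matrix differences was not tested.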

How the data were processed

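Per the labels, total RNA from frozen hearts was prepared with Trizol and sequenced as Illumina TruSeq libraries. Per the submitters' processing notes the genome was mm10, while the aligner, the counter and the annotation they used were not given in the sources used here. The authors deposited 1 table per library: for 33 libraries values that behave as FPKM (a unit inferred from the values), and for 3, recorded as KO ZT22, expected counts that need not be whole. Per the file headers those count columns name KO ZT10 libraries, and 99.957 to 99.963% of genes were zero or nonzero together with the same-named FPKM, so KO ZT22 was not analysed here. The counts gave gene lengths, from which depth was recovered. WT ZT14 header replicate numbers differ from the record, which was followed, and 1 further column of per-sample values was not used.

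Symbols for 18623 of 18762 IDs came from RefSeq (GRCm38.p6). Because FPKM are not counts, log2(FPKM + 1) of the 11790 genes reaching 1 FPKM in 3 or more libraries was fitted with limma 3.58.1 (R 4.3.3, moderated with a mean trend), with 11 group means (22 residual degrees of freedom) or a 24 h cosine per genotype (27), and p adjusted by Benjamini-Hochberg over all genes. Tests were checked on simulated data. Alternatives were pseudocount, filter, scaling, sample weights, a replicate block, removal of length and GC trends, single libraries left out and, chosen after seeing the data, edgeR 4.0.16 on counts rebuilt from FPKM, rounded to whole numbers, and the block with header numbers. Members and lists were chosen with earlier results of these data known. Described in most detail were Col1a1, Col3a1, Col4a1, Col4a2, Postn and Timp1, in each class the 2 members with the largest called difference (or, with none called, the most abundant), and the 3 with the smallest p for the interaction, the rhythm in each genotype and the rhythm difference. Other genes are named as examples, chosen after their values were seen.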

Additional observations from a re-analysis of the deposited data

Results flagged for a closer look

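The difference between KO-labelled and WT hearts was called as varying between the 5 shared times for 6 members, by the limma interaction test. The adjusted p was 0.00116 for Hspg2, 0.00309 for Loxl2, 0.0102 for Lamb2, 0.0222 for Dcn, 0.0431 for Fbln1 and 0.0487 for Col4a1. Calls for Hspg2, Loxl2 and Lamb2 held in every setting. Those for Fbln1 and Col4a1 were lost with 19 and 27 of the single libraries left out, and that for Dcn with 2. For Hspg2 and Loxl2 the difference was larger at ZT6 and ZT14 than at the other 3 times. For Col4a1 it was largest at ZT14, at 0.91, and much the same at ZT6 and ZT18, at 0.78 and 0.765 (SE 0.06 each). For Lamb2 the difference was largest at ZT14 and ZT18, and for Fbln1 the decrease was largest at ZT10. The rhythm of Dcn differed between KO-labelled and WT hearts (limma adjusted p = 0.0106), with fitted peaks at ZT0.0 in KO-labelled hearts and ZT7.0 in WT hearts. That call was lost with WT at ZT2 to ZT18 only, and the KO-labelled peak lies between ZT18 and ZT2, where KO-labelled hearts were not measured. Groups of 3 libraries are too small for a check of single outlying samples.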

How the results depend on the processing

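Over the alternative settings and single libraries left out, 33 of the 38 members called in the mean effect kept their call, and 3 members stayed lower in every fit. Lost in at least 1 setting were Lamc1, Nid1, Lox, Dcn and Mmp2. The count of members higher in KO-labelled hearts was 31 with quantile normalization, 32 with median-ratio scaling, 33 by edgeR on rebuilt counts, 34 with length and GC trends removed, 36 with no filter or with sample weights, 27 of the 34 members that averaged 5 FPKM or more, and 34 to 36 with a single library left out. Samples sharing a replicate number did not deviate together (165 pairs, r from -0.152 to 0.158), and with the replicate block 35 members were higher and 3 lower, so no member's call in the mean effect changed. The count called at ZT2 was 10 to 21 with a single library left out. The interaction count was 3 with length and GC trends removed, 17 with sample weights and 3 to 10 with a single library left out. The rhythm difference count was 2 with sample weights, 0 with WT at ZT2 to ZT18 only (limma; 4 at an unadjusted p under 0.05, and 1 by edgeR on all times), and 1 to 2 with a single library left out (2 without WT ZT6 replicate 3). Only uncalled members changed sign: Lama4 ranged from -0.024 to 0.018 with a single library left out and was 0.001 with length and GC trends removed, and Mmp14 ranged from -0.019 to 0.020. The causes were not tested. Among tested members depth limits Timp1, Thbs1, Thbs4 and Lox most, with 12, 35, 42 and 49 reads in their lowest libraries.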
